A study of Mus musculus with 12 samples.

Results

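A set of 10 endothelial genes was followed through RNA libraries of astrocytes from mice with both, 1 or no working copies of Cd38. They were chosen by name. Cldn5, Pecam1, Flt1, Ly6c1, Itm2a, Slco1a4, Cdh5 and Tek are 8 marker genes of vascular endothelium. Nostrin and Tmem204 are 2 further genes that had come to attention because they were lower in Cd38-deficient than in Cd38+/+ libraries. All 10 were found once among the 20614 genes of the expression table. The question was whether Nostrin and Tmem204 follow the amount of endothelial RNA in each library. Because both were picked for their difference from Cd38+/+, that difference is given below as a description and carries no test.

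Brain capillaries are lined by endothelial cells sealed by tight junctions, and astrocytes wrap these vessels with their endfeet. When brain tissue is dissociated, fragments of vessel can travel with astrocytes. RNA of endothelial genes in an astrocyte preparation can reflect, among other things, how much vessel tissue the preparation holds.

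The libraries came from male mice of 12 to 14 months, bred on C57BL/6J. Of the 12 libraries, 3 were Cd38+/+, 3 were Cd38+/- and 6 were Cd38-/-, the mutant allele being a germline disruption of Cd38 (B6.129P2-Cd38tm1Lnd/J) that every cell type carries, endothelium included. Tissue from striatum, thalamus and substantia nigra was dissociated with papain. Magnetic beads were used first to remove endothelial cells and myelin, then to take microglia with anti-CD11b, and the remaining cells were captured with anti-ACSA-2, an antibody to an astrocyte surface antigen. All values are TPM, transcript levels scaled for gene length and then to a fixed total in each library. The table holds no read counts, so the depth behind a value is unknown.

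Cd38 itself was at 104.88 to 148.64 TPM in Cd38+/+, at 90.36 to 90.80 TPM in Cd38+/- and at 8.54 to 21.86 TPM in Cd38-/- libraries, in the order of the labels. The 12 astrocyte markers summed to between 11240 and 19100 TPM in every library, and none of them was at 0 throughout. Between 13160 and 13516 genes had a value above 0 in Cd38+/+ libraries, against 16160 to 16327 in Cd38+/- and 15920 to 17906 in Cd38-/-, so the number of genes detected moved with genotype. Its part in the comparisons with Cd38+/+ was not tested. The 8 endothelial markers together reached 627 to 2768 TPM in Cd38+/+, 506 to 987 TPM in Cd38+/- and 537 to 1765 TPM in Cd38-/- libraries. Endothelial RNA was thus present in all 12 libraries after bead removal. In bulk libraries of this kind, fewer endothelial cells and less RNA per endothelial cell cannot be told apart.

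Nostrin lies on chromosome 2 of GRCm38 (chr2:69135800-69189330, plus strand) and Tmem204 on chromosome 17 (chr17:25057702-25083591, minus strand). The whole span of Tmem204 falls inside Ift140 (chr17:25016085-25099495, plus strand), a gene of intraflagellar transport. Ift140 was at 6.71, 25.38 and 36.99 TPM in the Cd38+/+ libraries, at 48.84, 26.12 and 32.80 TPM in Cd38+/-, and at 25.82 to 60.96 TPM in Cd38-/-. The library with the highest Tmem204 therefore had the lowest Ift140. How strand was treated in counting is not given in the sources used here. Whether exons of the overlapping genes share sequence was not examined, so the assignment of reads between them was not tested.

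The 250 bases before the annotated start were available for 7 of the 10 genes in RefSeq promoters of GRCm38.p6. Nostrin is shown beside Cldn5, the marker that its level followed most closely, and beside the receptors Tek and Flt1. After each library was centred on its genotype mean, Nostrin had a Pearson's r of 0.857 with Flt1 and 0.803 with Tek. It was closer to Itm2a (0.880) and Ly6c1 (0.872), whose sequences are not shown. Capitals mark a match to one of the motifs searched.
Nostrin, chr2:69135550-69135799, plus strand: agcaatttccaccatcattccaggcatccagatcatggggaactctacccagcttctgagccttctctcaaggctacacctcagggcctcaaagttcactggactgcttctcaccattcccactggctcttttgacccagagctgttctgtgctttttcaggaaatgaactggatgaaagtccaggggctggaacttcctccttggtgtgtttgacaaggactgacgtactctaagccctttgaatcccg
Cldn5, chr16:18776597-18776846, plus strand: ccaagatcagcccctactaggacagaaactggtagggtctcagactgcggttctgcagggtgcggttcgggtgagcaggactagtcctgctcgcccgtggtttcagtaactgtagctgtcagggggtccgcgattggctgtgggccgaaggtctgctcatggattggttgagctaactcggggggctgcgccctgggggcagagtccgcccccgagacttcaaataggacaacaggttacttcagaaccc
Tek, chr4:94739039-94739288, plus strand: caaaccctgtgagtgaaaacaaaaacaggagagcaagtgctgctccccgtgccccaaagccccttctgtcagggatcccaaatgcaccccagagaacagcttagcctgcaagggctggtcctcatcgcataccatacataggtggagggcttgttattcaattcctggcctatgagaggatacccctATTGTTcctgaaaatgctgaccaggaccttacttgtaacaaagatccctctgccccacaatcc
Flt1, chr5:147726012-147726261, minus strand: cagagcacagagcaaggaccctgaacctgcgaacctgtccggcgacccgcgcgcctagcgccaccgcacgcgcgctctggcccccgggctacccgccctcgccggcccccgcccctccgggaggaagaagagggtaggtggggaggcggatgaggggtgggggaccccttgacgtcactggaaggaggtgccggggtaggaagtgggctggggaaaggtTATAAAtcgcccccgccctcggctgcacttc

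The motifs were searched on both strands. For ETS factors, which drive many endothelial genes, they were ACAGGAA and also, with a different flank, CCGGAAG. The letters AGATAA stood for zinc finger factors of the Gata family, and AACAAT for Sox factors. The remaining motif was the core promoter box with the letters TATAAA. Tek held the Sox letters on the opposite strand, 63 to 58 bases before the start, and Flt1 held TATAAA 31 to 26 bases before it. The Nostrin and Cldn5 windows held none of the 5. Over all 32851 promoters of this length the shares with a match were 7.20% for ACAGGAA, 6.91% for CCGGAAG, 9.99% for AGATAA, 9.42% for AACAAT and 12.4% for TATAAA. Of the 7 genes, Slco1a4 also held AACAAT and Itm2a AGATAA. The Slco1a4 start was not matched to a GENCODE transcript. Ly6c1 held TATAAA in the window chr15:75048838-75049087, 143 to 138 bases before the start. Its other window, chr15:75048664-75048913, held no match. The share of G and C bases went from 50.4% in Nostrin through 51.2% in Tek and 59.6% in Cldn5 to 70.4% in Flt1.

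Nostrin encodes an adaptor that binds endothelial nitric oxide synthase and moves it away from the cell surface. It was at 67.53, 22.34 and 14.49 TPM in Cd38+/+ replicates 1, 2 and 3, and at 9.12, 3.67 and 7.89 TPM in the Cd38+/- replicates. In Cd38-/- it ran from 6.45 TPM through a median of 11.79 to 20.04 TPM. Every Cd38+/- library was below every Cd38+/+ library, whereas the highest Cd38-/- libraries reached into the Cd38+/+ range. Mean levels were 34.8 ± 28.6 TPM in Cd38+/+ (SD, n = 3), 6.89 ± 2.86 TPM in Cd38+/- (SD, n = 3) and 12.1 ± 5.36 TPM in Cd38-/- (SD, n = 6). The Cd38+/+ mean rested largely on replicate 1.

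Tmem204 encodes a claudin-like protein with 4 membrane spans that is found at endothelial cell contacts. It was at 145.85, 60.07 and 45.19 TPM in the Cd38+/+ replicates, and at 39.50, 33.08 and 29.37 TPM in the Cd38+/- replicates. In Cd38-/- the lowest library was at 19.96 TPM, the median was 39.97 and the highest library was at 60.54 TPM. As for Nostrin, Cd38+/- lay wholly below Cd38+/+ and Cd38-/- overlapped it. The means were 83.7 ± 54.3, 34.0 ± 5.13 and 39.98 ± 13.4 TPM (SD, n = 3, 3 and 6).

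Among the junction and adhesion genes, Cldn5 encodes the main claudin of the blood-brain barrier. It was at 488.18, 253.94 and 145.96 TPM in Cd38+/+, and at 139.08, 84.14 and 106.32 TPM in Cd38+/-. In Cd38-/- it ran from 92.97 TPM through a median of 137.6 to 284.66 TPM. Its pattern matched that of Nostrin and Tmem204, with Cd38+/- below all Cd38+/+ libraries and Cd38-/- across both. Pecam1, the adhesion molecule CD31, was at 71.98, 44.89 and 0.92 TPM in Cd38+/+. It was at 41.33, 16.81 and 25.19 TPM in Cd38+/- and at 18.11 to 50.51 TPM in Cd38-/-, with a median of 32.55 TPM. Cd38+/+ replicate 3 was thus far below every other library. Cdh5, VE-cadherin of the adherens junction, shared this low library, with 9.63, 12.19 and 0.86 TPM in Cd38+/+, 5.44, 3.23 and 2.89 TPM in Cd38+/-, and 2.16 to 4.24 TPM in Cd38-/-.

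Flt1 and Tek are receptors for vascular endothelial growth factor and angiopoietins. Flt1 was at 118.26, 60.55 and 19.52 TPM in Cd38+/+, at 78.09, 24.91 and 42.09 TPM in Cd38+/-, and at 31.92 to 77.20 TPM in Cd38-/-. Tek was at 48.17, 25.54 and 9.17 TPM, at 26.46, 9.65 and 15.68 TPM, and at 12.28 to 29.37 TPM in the same order. For both receptors the Cd38+/+ libraries spanned the whole range of the other genotypes.

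The surface proteins Ly6c1 and Itm2a and the organic anion transporter Slco1a4 are enriched in brain endothelium. Ly6c1 was at 1044.61, 558.98 and 199.95 TPM in Cd38+/+, at 286.87, 169.81 and 247.34 TPM in Cd38+/-, and at 158.58 to 663.16 TPM in Cd38-/-. Itm2a was at 787.50, 551.70 and 206.00 TPM, at 276.52, 155.57 and 208.83 TPM, and at 156.73 to 480.59 TPM. Slco1a4 was at 200.11, 144.98 and 44.91 TPM, at 132.85, 42.16 and 77.64 TPM, and at 64.10 to 177.33 TPM. All 3 genes overlapped between every pair of genotypes. The paralogs Ly6c2, at most 6.05 TPM, and Slco1a5 and Slco1a6, at most 5.30 and 0.62 TPM, were low. How many reads were shared with these copies was not measured.

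**Figure D1:**
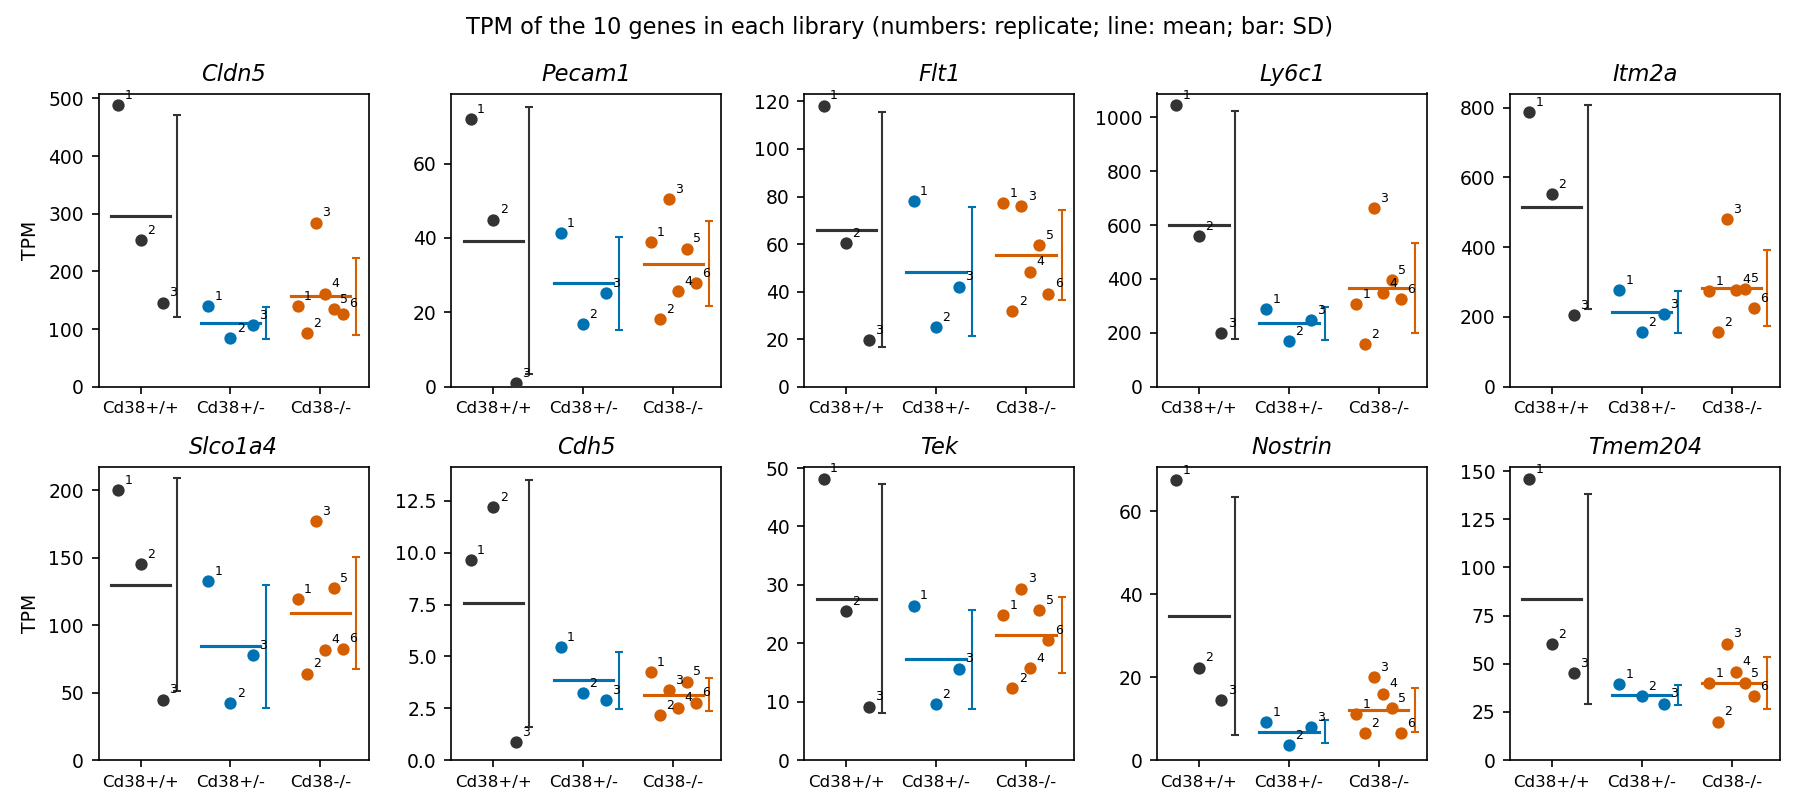
TPM (linear vertical axes from 0, 1 scale per panel) of each of the 10 genes in each library, with the replicate number beside each point, a line at the genotype mean and a bar for the SD. Cd38+/+ replicate 1 was highest of its genotype for 9 of 10 genes, and Pecam1 and Cdh5 were at 0.92 and 0.86 TPM in Cd38+/+ replicate 3.

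By mean TPM the order in Cd38+/- and Cd38-/- was Ly6c1, Itm2a, Cldn5, Slco1a4, Flt1, Tmem204, Pecam1, Tek, Nostrin and Cdh5. In Cd38+/+ Tmem204 stood above Flt1 and Nostrin above Tek. Neighbours in this order overlapped in range in Cd38+/+ without exception. In Cd38+/- Itm2a was clear of Cldn5 and Tek of Nostrin, and in Cd38-/- Nostrin was clear of Cdh5.

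The same libraries were high or low for nearly all 10 genes. In Cd38+/+, replicate 1 was highest for 9 genes, replicate 2 was highest for Cdh5, and replicate 3 was lowest for all 10. In Cd38+/-, replicate 1 was highest for all 10 and replicate 2 was lowest for 8. In Cd38-/-, replicate 3 was highest for 8 and replicate 2 was lowest for all 10. The ratio of highest to lowest library within a genotype was 3.23 to 78.2 in Cd38+/+ (median 4.94), 1.35 to 3.15 in Cd38+/- (median 2.17) and 1.96 to 4.18 in Cd38-/- (median 2.91).

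To set this against endothelial RNA measured on other genes, an index was formed as the mean log2(TPM + 1) of 34 endothelial genes outside the 10, among them Kdr, Emcn, Tie1, Esam and Sox17. The index was 5.47, 4.43 and 3.40 in Cd38+/+ replicates 1, 2 and 3, 4.42, 3.55 and 3.95 in Cd38+/-, and 3.65 to 4.75 in Cd38-/-. Its mean was 4.44 ± 1.03, 3.97 ± 0.44 and 4.26 ± 0.37 (SD, n = 3, 3 and 6). The genotypes overlapped, and the exact two-sided permutation p was 0.6 for Cd38+/- against Cd38+/+, where 3 against 3 libraries cannot give less than 0.1. It was 0.738 for Cd38-/- against Cd38+/+ and 0.310 for Cd38-/- against Cd38+/-, where the smallest possible p was 0.0119.

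Within genotypes, Nostrin and Tmem204 rose and fell with this index. After each library was centred on the mean of its genotype, Nostrin had a Pearson's r of 0.890 with the index over 12 libraries, by exact permutation within genotypes p = 0.00274 and adjusted p = 0.0102 by Benjamini-Hochberg over 44 relations. Spearman's rho was 0.839 (exact permutation p = 0.00779, adjusted p = 0.0429). Tmem204 had r = 0.889 (exact permutation p = 0.00193, adjusted p = 0.0102) and rho = 0.783 (exact permutation p = 0.0129, adjusted p = 0.0524). Without the 2 libraries farthest from the median index, which were Cd38+/+ replicates 1 and 3, r was 0.818 for Nostrin (adjusted permutation p = 0.0723) and 0.814 for Tmem204 (adjusted permutation p = 0.0566). Both relations kept their sign but no longer passed, so the call rests on those libraries. Leaving out Cd38-/- replicate 3 also ended the call for Nostrin (adjusted permutation p = 0.0555), with r little moved at 0.880, and leaving out Cd38-/- replicate 2 did so for Tmem204 (r = 0.888, adjusted permutation p = 0.055). The lowest r with a library left out, 0.792 for Nostrin and 0.781 for Tmem204, came without Cd38+/+ replicate 1, where both still passed (adjusted permutation p = 0.0262 and 0.0232).

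The 8 markers had r of 0.781 to 0.971 with the same index. Flt1 (0.971) and Tek (0.971) were highest and Cdh5 was lowest, and Cdh5 was the one marker that did not pass (adjusted permutation p = 0.115). Within the 6 Cd38-/- libraries alone, r was 0.779 for Nostrin (exact permutation p = 0.0625, adjusted p = 0.115). For Tmem204 r was 0.927 (exact permutation p = 0.0222, adjusted p = 0.0575). Both genes had a Spearman's rho of 0.771 (exact permutation p = 0.103, adjusted p = 0.181). Without Cd38-/- replicates 2 and 3, the libraries farthest from the median, r fell to 0.310 and 0.253 over 4 libraries. Within Cd38-/- the relation thus rests on the lowest and the highest library.

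**Figure D2:**
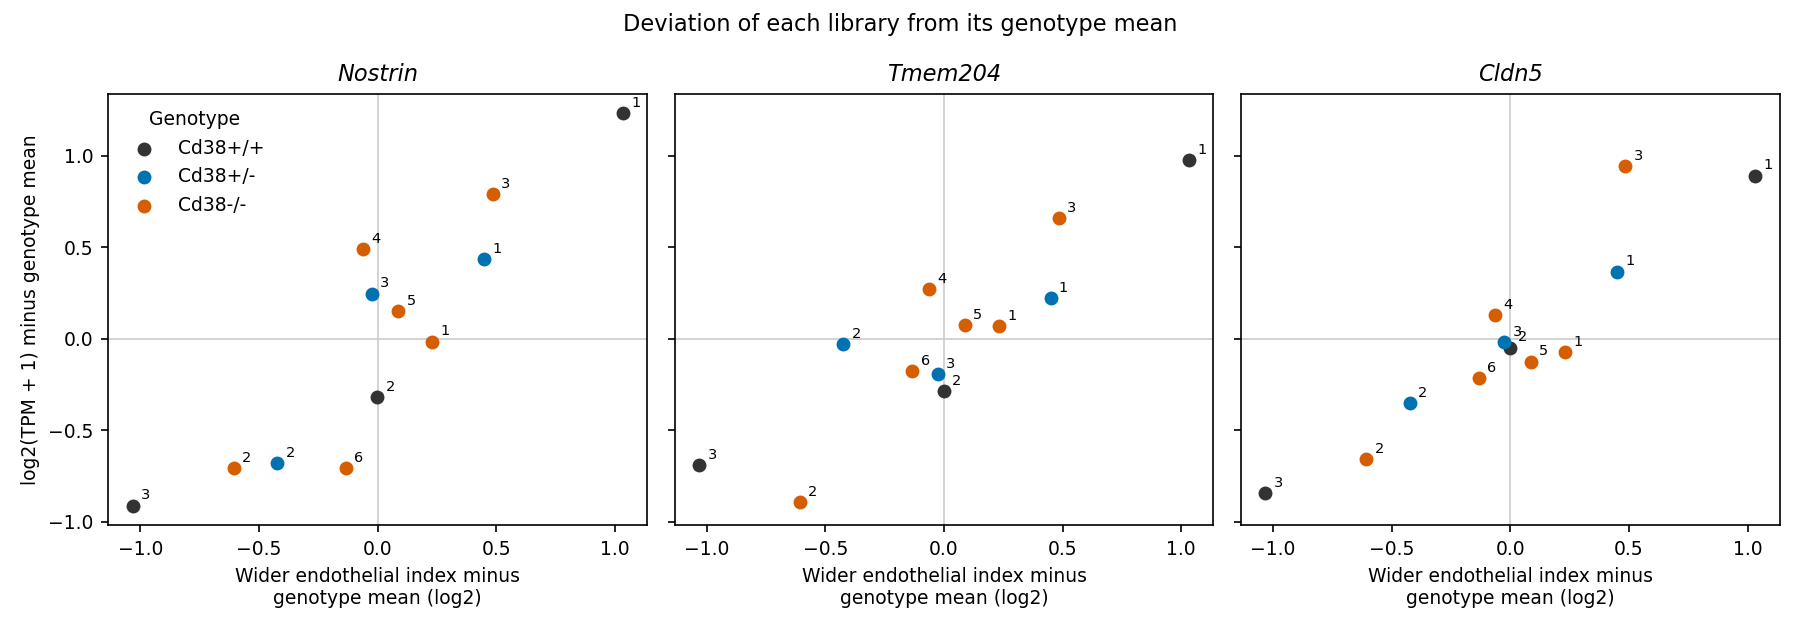
Genotype-centred log2(TPM + 1) of Nostrin, Tmem204 and Cldn5 (vertical axis) against the genotype-centred index of 34 other endothelial genes (horizontal axes), with 1 numbered point per library and 1 colour per genotype. Points lie along a rising line in each panel, with r of 0.890, 0.889 and 0.927 over 12 libraries.

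Pairs of the 8 markers had genotype-centred r of 0.624 to 0.979 over the 12 libraries (median 0.892, 28 pairs). Nostrin had r of 0.526 to 0.921 with the markers (median 0.838), highest with Cldn5 and lowest with Cdh5. Tmem204 had r of 0.548 to 0.925 (median 0.791), again highest with Cldn5 and lowest with Cdh5. These pairs share libraries and the TPM scale and are given as a description.

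Of 11373 genes with a mean above 5 TPM, Flt1 was the 6th and Tek the 7th by r with the index, while Nostrin was 79th and Tmem204 81st. The 5 genes whose pattern was most like that of Nostrin over 12 libraries were AU021092 (r = 0.936), Cldn5 (0.921), Cxcl12 (0.919), Prom1 (0.919) and Cd34 (0.919). For Tmem204 they were Anxa3 (0.940), Sox17 (0.937), Wfdc1 (0.936), Cldn5 (0.925) and AU021092 (0.920). Tmem204 was the 18th most like Nostrin and Nostrin the 21st most like Tmem204. Of 30 genes of the index above this level, 17 were among the 100 most like Nostrin and 13 among the 100 most like Tmem204, where 100 genes are 0.879% of those compared. The median r of the 30 genes was 0.794 with Nostrin and 0.763 with Tmem204, against -0.05 and -0.09 over all genes.

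Other cell types were set beside these relations by the same index made from their own markers. With Nostrin over 12 libraries r was 0.170 for 12 mural genes, 0.502 for 8 fibroblast genes, 0.017 for 12 microglial genes, 0.154 for 10 oligodendrocyte genes, 0.137 for 12 astrocyte genes and -0.607 for 13 neuronal genes. With Tmem204 the same lists gave 0.160, 0.440, 0.250, 0.416, 0.088 and -0.471. None of these 12 relations passed (adjusted permutation p of 0.115 or more). In Cd38-/- alone, Nostrin passed by Pearson's r with mural genes (r = 0.927, exact permutation p = 0.0139, adjusted p = 0.0407). By r it also passed with neuronal genes (r = -0.872, exact permutation p = 0.00278, adjusted p = 0.0102). Neither passed by Spearman's rho. For mural genes rho was 0.771 (exact permutation p = 0.103, adjusted p = 0.181). For neuronal genes rho was -0.943 (exact permutation p = 0.0167, adjusted p = 0.0524). Without the 2 libraries farthest from the median, r was 0.837 and -0.999. Tmem204 with the mural list in Cd38-/- had r = 0.781 (exact permutation p = 0.0694, adjusted p = 0.122). Its rho was 0.771 (exact permutation p = 0.103, adjusted p = 0.181). Whether a relation with one list differed from that with another was not tested.

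Between Cd38+/- and Cd38+/+, no marker was called by limma on log2(TPM + 1) with a Storey q below 0.05 and a change of 1.2-fold or more. Nor was any gene of the 11763 tested (percent called 0). In the same fit, 2 of the 8 markers, Cldn5 and Itm2a, were lower at an unadjusted p under 0.05, a level that 3.99% of all genes reached in that direction. Of the 8 markers Cldn5 did not overlap and was lower, as were 6.94% of all genes. Nostrin and Tmem204, chosen on this contrast, are given by their fitted values alone. The log2 fold change was -1.96 (SE 0.59) for Nostrin and -1.10 (SE 0.40) for Tmem204. Beside these stood -1.28 for Cldn5 (SE 0.39, limma q = 0.181), -1.10 for Itm2a (SE 0.44, limma q = 0.218) and -1.09 for Ly6c1 (SE 0.51, limma q = 0.243). Slco1a4 (-0.52), Tek (-0.48), Cdh5 (-0.43) and Flt1 (-0.26) were smaller, and Pecam1 was at 0.54 with an SE of 1.17. The median over the 8 markers was -0.50 and over the 30 index genes tested -0.57, with 26 of 30 below 0, whereas the median of all genes was 0.18 and 35.6% of them were below 0. None of the 30 was called, and 5 were lower at an unadjusted p under 0.05 by limma. The summed astrocyte markers were 11240 to 15770 TPM in Cd38+/+ and 17440 to 19100 TPM in Cd38+/- and did not overlap, and their part in this comparison was not tested.

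Between Cd38-/- and Cd38+/+, 970 of 11722 genes were called by limma (8.28%, and 1.86% called lower), and none of the 8 markers was among them. In that fit 1 of the 8, Cldn5, was lower at an unadjusted p under 0.05, as were 5.99% of all genes. None of the 8 was lower without overlap (3.62% of all genes). The log2 fold change was -1.26 (SE 0.47) for Nostrin and -0.94 (SE 0.37) for Tmem204, next to -0.83 for Cldn5 (SE 0.36, limma q = 0.108), -0.74 for Itm2a (SE 0.38, limma q = 0.149) and -0.54 for Ly6c1 (SE 0.47, limma q = 0.288). Flt1 (0.01), Slco1a4 (-0.09) and Tek (-0.13) were close to 0, and Cdh5 was at -0.65 and Pecam1 at 0.80. The median was -0.34 over the 8 markers and -0.22 over the 30 index genes tested, of which 20 were below 0, against 0.15 over all genes. Of the 8 markers 6 were below 0, as were 35.7% of all genes.

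This comparison turned on single Cd38+/+ libraries. Without replicate 3, the library low in endothelial RNA, 4 of the 8 markers were called lower by limma, namely Cldn5, Ly6c1, Itm2a and Cdh5, with log2 fold changes of -1.18 to -1.54. Of all genes 26.5% were then called, and 7.22% were called lower. The fitted values of Nostrin and Tmem204 without that library were -1.72 and -1.28, given as a description. The index genes had a median of -0.95 without replicate 3 and of 0.27 without replicate 1. Which Cd38+/+ library was left out set the sign of this median.

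In Cd38-/- against Cd38+/-, a contrast that did not itself serve to choose Nostrin and Tmem204, although its libraries did, none of the 9 genes that passed the level filter was called by limma, and 4 of 11563 genes were (0.0346%). Cdh5 was below the filter of a mean above 5 TPM. None of the 9 had an unadjusted p under 0.05 by limma, a level that 6.24% of all genes reached as higher and 5% as lower. All 9 lay above 0, as did 45.4% of all genes, with log2 fold changes from 0.17 for Tmem204 (SE 0.27, limma q = 0.619) to 0.70 for Nostrin (SE 0.36, limma q = 0.357). Ly6c1 (0.55), Cldn5 (0.45) and Slco1a4 (0.43) came next to Nostrin. The 29 index genes tested had a median of 0.29 with 2 below 0, and 3 of them, Ramp2, Tm4sf1 and Ctla2a, were higher at an unadjusted p under 0.05 by limma.

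**Figure D3:**
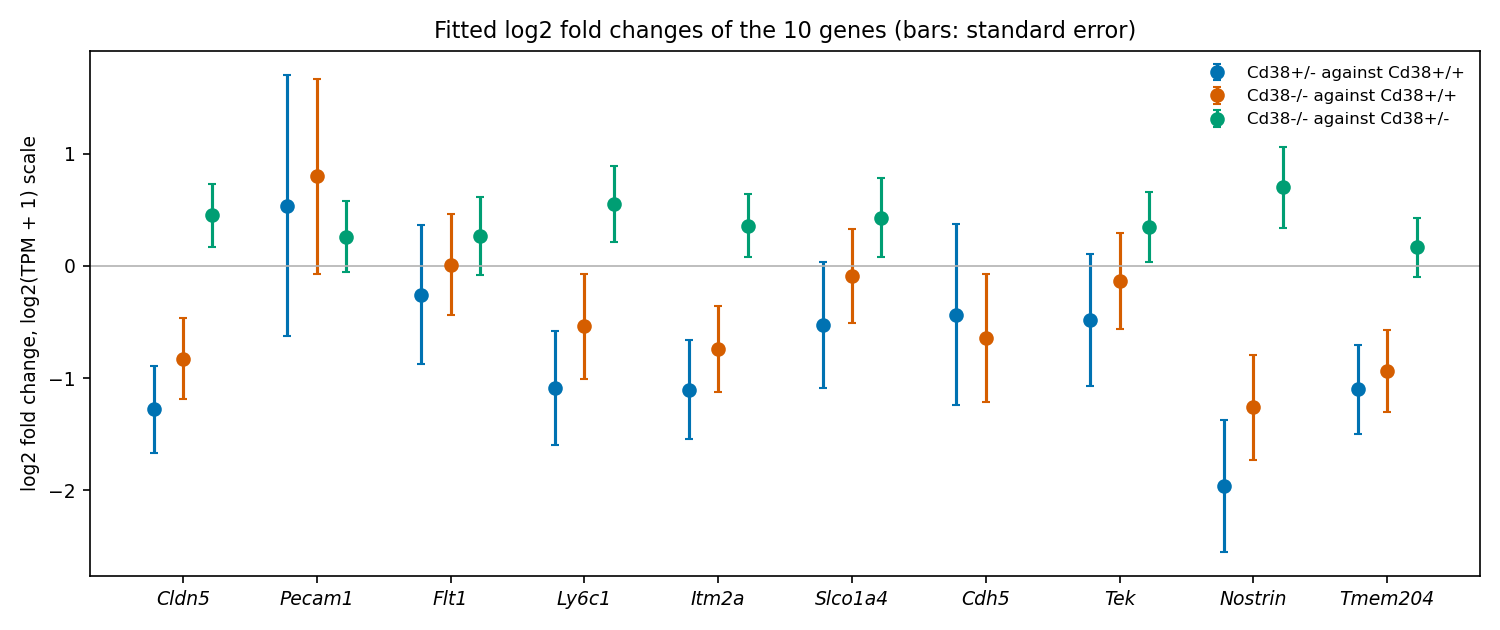
Log2 fold changes on the log2(TPM + 1) scale (vertical axis) from limma for the 10 genes, with 1 colour per comparison, bars for the SE and a line at 0, and with no point for Cdh5 between Cd38-/- and Cd38+/-, where it was not tested. Nostrin is lowest in both comparisons with Cd38+/+ (-1.96 and -1.26) and highest between Cd38-/- and Cd38+/- (0.70).

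The level of each gene was next expressed relative to endothelial RNA in the same library, as its log2(TPM + 1) minus the index. Nostrin was at 0.43 ± 0.28 in Cd38+/+, between 0.11 and 0.63, at -1.07 ± 0.27 in Cd38+/-, between -1.32 and -0.79, and at -0.65 ± 0.40 in Cd38-/-, between -1.23 and -0.10 (SD, n = 3, 3 and 6). Relative to the index, Nostrin was therefore below all Cd38+/+ libraries in every library of the other genotypes, by -1.496 in Cd38+/- and by -1.09 in Cd38-/- on average. Tmem204 was at 1.79 ± 0.32, 1.15 ± 0.34 and 1.02 ± 0.22, with differences from Cd38+/+ of -0.64 and -0.76. Its Cd38-/- libraries lay below all Cd38+/+ libraries, whereas its Cd38+/- libraries overlapped them, with a highest Cd38+/- value of 1.54 against a lowest Cd38+/+ value of 1.499. As both genes were chosen for their difference from Cd38+/+, these positions are a description.

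Some markers had differences of the same sign and others had none of this size. Cldn5 stood at -0.82 in Cd38+/- and -0.65 in Cd38-/- from Cd38+/+ and did not overlap in either. Ly6c1 was at -0.62 and -0.36 and Itm2a at -0.64 and -0.57, without overlap in Cd38+/- and with overlap in Cd38-/-. Tek (-0.02 and 0.04), Slco1a4 (-0.06 and 0.08) and Flt1 (0.21 and 0.19) differed little between genotypes on this scale. Pecam1 was at 1.00 and 0.98, set by Cd38+/+ replicate 3 at -2.46, and Cdh5 was at 0.03 and -0.47. In all, 3 of the 8 markers were lower without overlap in Cd38+/- (Cldn5, Ly6c1 and Itm2a), beside 0.4% of all genes on the same scale, and 1 in Cd38-/- (Cldn5), beside 0.273%. Higher without overlap on this scale were 11.4% and 1.99% of all genes. Subtracting the index gives its own spread to genes that do not follow it. These shares are therefore no like baseline for endothelial genes, and nothing is read from the counts. With the index as a covariate in limma, the log2 fold change from Cd38+/+ was -1.46 (SE 0.37) in Cd38+/- and -1.07 (SE 0.28) in Cd38-/- for Nostrin, and -0.76 (SE 0.25) and -0.77 (SE 0.19) for Tmem204.

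From Cd38+/- to Cd38-/-, the difference relative to the index was 0.41 for Nostrin (exact permutation p = 0.167, adjusted p = 0.794 over the 10 genes) and -0.12 for Tmem204 (exact permutation p = 0.548, adjusted p = 0.848). No gene of the 10 passed, and the smallest adjusted permutation p was 0.238 for Cdh5, which was lower in Cd38-/- by -0.50.

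**Figure D4:**
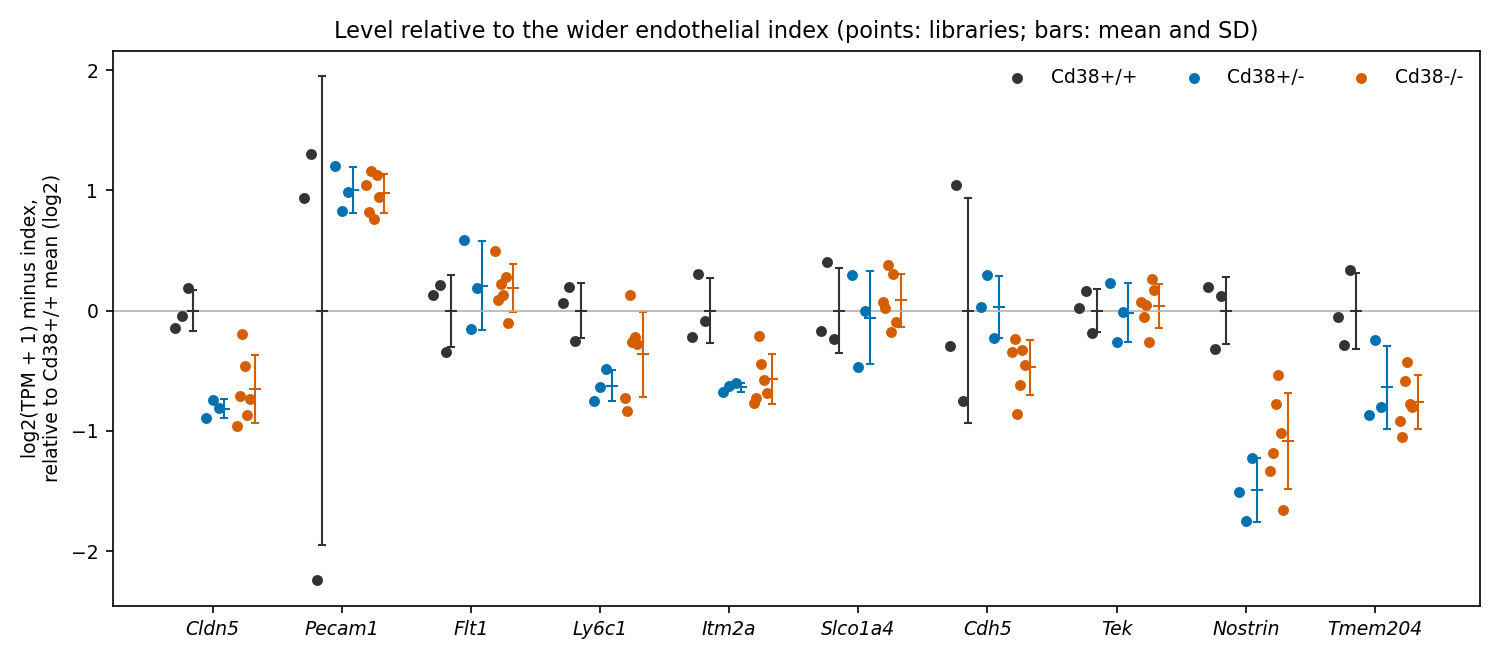
Log2(TPM + 1) of each of the 10 genes minus the index of 34 other endothelial genes, shown as the difference from the Cd38+/+ mean of that gene (vertical axis, log2 scale), with a point per library and bars for the genotype mean and SD. All Cd38+/- and Cd38-/- points of Nostrin, and likewise of Cldn5, lie below the Cd38+/+ points of the same gene. Points of Ly6c1 and Itm2a do so in Cd38+/- only, and those of Tmem204 in Cd38-/- only. Those of Tek, Flt1 and Slco1a4 overlap.

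As a share of Cldn5, Nostrin was 13.8%, 8.80% and 9.93% in the Cd38+/+ replicates, 6.56%, 4.36% and 7.42% in the Cd38+/- replicates and 5.10% to 9.96% in Cd38-/-. Cd38+/- stayed below Cd38+/+, and Cd38-/- overlapped it. Tmem204 was 23.7% to 31.0% of Cldn5 in Cd38+/+, 27.6% to 39.3% in Cd38+/- and 21.3% to 29.6% in Cd38-/-, and the genotypes overlapped. Nostrin in Cd38+/- was below all Cd38+/+ libraries relative both to the index and to Cldn5. Nostrin in Cd38-/- and Tmem204 in Cd38-/- were below them relative to the index and overlapped them relative to Cldn5. Both genes were chosen for lower levels than in Cd38+/+, so these positions are partly fixed by the choice, and nothing is read from them.

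Genes known to work with these 10 were read from lists of related genes. Of 22 genes around endothelial nitric oxide synthase, the partner of Nostrin, 22 were tested and 1 was called by limma in Cd38-/- against Cd38+/+, where 8.28% of all genes were called. This was Wasl, a regulator of actin assembly, which fell by 0.90 on the log2 scale (limma q = 0.0310), from 53.28, 107.41 and 83.80 TPM in Cd38+/+ to 34.05 to 52.66 TPM in Cd38-/-. At an unadjusted p under 0.05 by limma, 5 of the 22 were lower and 0 higher in Cd38+/- against Cd38+/+ (3.99% of all genes lower). Without overlap, 4 were lower (6.94% of all genes) and 3 were higher (15.5%). In Cd38-/- 4 were lower (5.99%) and 1 higher than in Cd38+/+, and 4 of 21 tested were higher than in Cd38+/- (6.24%). Nos3, the synthase itself, was at 39.03, 21.50 and 18.64 TPM in Cd38+/+, at 19.57, 9.0 and 13.24 TPM in Cd38+/-, and at 8.97 to 23.14 TPM in Cd38-/-. Its highest library in each of Cd38+/+ and Cd38+/- was replicate 1, also the highest for Nostrin. That library was highest for 9 of the 10 genes in Cd38+/+ and for all 10 in Cd38+/-. In Cd38-/- Nos3 was highest in replicate 1 and Nostrin in replicate 3. Among further junction genes the claudin Cldn12 rose by 0.72 on the log2 scale in Cd38-/- against Cd38+/+ (limma q = 0.0276). Of 14 barrier transporters, Slc38a5, an amino acid transporter, fell by 1.31 (limma q = 0.0399), from 51.98, 32.09 and 19.94 TPM in Cd38+/+ to 7.02 to 23.45 TPM in Cd38-/-. By unadjusted limma p under 0.05, 3 of these 14 were lower in Cd38+/- (3.99% of all genes) and 3 in Cd38-/- (5.99%) than in Cd38+/+, and 1 and 2 were higher. None of 11 tested genes of the VEGF and angiopoietin pathway was called. At an unadjusted p under 0.05 by limma, 2 of the 11 were higher in Cd38+/- and 1 in Cd38-/- than in Cd38+/+, and 2 were lower in Cd38-/- than in Cd38+/- (5% of all genes). In the other comparisons no gene of these 4 lists was called by limma. The share of all genes higher than in Cd38+/+ at an unadjusted p under 0.05 was not computed. Counts of genes higher than in Cd38+/+ at that level therefore have no baseline here, and nothing is read from them. Of all genes, 64.4% lay above 0 in Cd38+/- and 64.3% in Cd38-/- against Cd38+/+.

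Markers of other cell types were examined in the same way. In Cd38-/- against Cd38+/+, where 8.28% of all genes were called, limma called the mural gene Higd1b (log2 fold change 1.18, q = 0.0382) of 12, the microglial gene P2ry12 (1.98, q = 0.0479) of 7 tested, and the astrocyte genes Gfap (1.00, q = 0.0175) and Aqp4 (0.71, q = 0.0200) of 12, all higher. P2ry12 was at 0, 0 and 6.23 TPM in Cd38+/+ and at 4.06 to 8.71 TPM in Cd38-/-. Its genotypes overlapped, and its change rests on the Cd38+/+ libraries at 0. No fibroblast, oligodendrocyte or neuronal marker was called, and none of any list was called in the comparisons with Cd38+/- libraries. Summed levels of mural markers were 592 to 811 TPM in Cd38+/+, 691 to 1073 TPM in Cd38+/- and 549 to 1233 TPM in Cd38-/-, and oligodendrocyte markers ranged from 1329 to 17850 TPM over all libraries. Their part in the differences of the 10 genes was not tested.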

How the data were processed

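RNA of 12 astrocyte preparations was sequenced by the authors. Per the protocol, rRNA was depleted and cDNA made with SMART-Seq v4, with paired-end NovaSeq reads. The submitters' notes name Trim Galore 0.6.4, STAR 2.7.1a, RSEM 1.2.28, DESeq2 1.36.0 and mm10. The deposited values are TPM per gene, with 2 decimals, and are what the authors' RSEM step gave. DESeq2 was not used here. The gene annotation is not given in the sources used here. Positions are from GENCODE vM21.

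Groups were taken from the labels. Nothing says that libraries of a group came from separate mice, so p-values measure the spread between these libraries. The labels name no batch. Genes with a mean above 5 TPM in at least 1 compared genotype were tested by limma 3.58.1 in R 4.3.3 on log2(TPM + 1), with trend, on the libraries of the compared genotypes. Calls needed a Storey q below 0.05 with a change of 1.2-fold or more. Fold changes on this scale understate those of low genes. Correlations and the index used exact two-sided permutation tests in Python 3.11.15, over 25920 arrangements within genotypes or 720 within Cd38-/-. The limma fit with its Storey q was tested on simulated data. The 10 genes and all lists were chosen with earlier results of these data known. Genes named outside the 10 were those called in a list, the 5 most like Nostrin and Tmem204, and a few chosen after their values were seen (Kdr, Emcn, Tie1, Esam, Ramp2, Ctla2a, Nos3, Ift140 and the paralogs). Replicate numbers were not treated as pairs in the main fits. A result among the junction genes is not reported here.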

Additional observations from a re-analysis of the deposited data

How the results depend on the processing

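The TPM scale keeps no depth, and 3 Cd38+/+ libraries with a wide endothelial range limit every comparison with them. Of the 10 genes, 2 were called between Cd38+/- and Cd38+/+ with all 12 libraries in one fit (Cldn5 and Nostrin, where 12.4% of all genes were called), 1 between Cd38-/- and Cd38+/+ after quantile normalization (Cdh5, with 9.51% of all genes), and 2 between Cd38-/- and Cd38+/- with library quality weights (Cldn5 and Ly6c1, with 27% of all genes). Leaving out 1 library gave 0 to 6 between Cd38-/- and Cd38+/+, 6 being without Cd38+/+ replicate 3, and 0 in the other comparisons. Counts against Cd38+/+ that include Nostrin or Tmem204 are partly fixed by how these were chosen, and nothing is read from them. Of 30 index genes tested, 1 was called between Cd38+/- and Cd38+/+ with all libraries in one fit (12.4% of all genes). With a library left out 0 to 1 was called there, beside 0 to 10 of all genes. In Cd38-/- against Cd38+/+, 2 of 34 were called without the level filter, beside 2283 of 18906 over all genes. Of 30, 2 were called after quantile normalization (9.51% of all genes) and 2 with all libraries in one fit (15.5%). With a library left out 0 to 17 were called, 17 of 30 being without Cd38+/+ replicate 3 (26.5% of all genes). With quality weights 8 of 29 were called in Cd38-/- against Cd38+/- (27% of all genes). The causes were not tested.

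Over all genes, calls between Cd38+/- and Cd38+/+ went from 0 to as many as 1464 (all libraries in one fit). For Cd38-/- against Cd38+/+ the 970 calls became 1 with quality weights, 326 with Benjamini-Hochberg adjustment, 1822 with all libraries in one fit and 2283 without the level filter, and 74 to 3119 with a library left out. For Cd38-/- against Cd38+/- the 4 calls became 1 to 3120, the highest with quality weights, and 0 to 93 with a library left out.

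The correlation with the index was 0.818 for Nostrin and 0.814 for Tmem204 without the 2 libraries farthest from the median, and 0.792 to 0.926 and 0.781 to 0.923 with each library left out. Relative to the index, Nostrin in Cd38+/- against Cd38+/+ was -1.81 with a pseudocount of 0.1 and -1.07 with one of 5. With the summed TPM as the index, chosen after seeing the data, Nostrin in Cd38-/- (-1.02) and Tmem204 in Cd38-/- (-0.69) overlapped Cd38+/+, as Tmem204 did with index genes at a mean of at least 5 TPM (-0.64).

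Small log2 fold changes turned sign. Flt1 between Cd38-/- and Cd38+/+ was -0.011 with a pseudocount of 5, -0.22 with quality weights, -0.11 with median-ratio scaling, -0.047 after quantile normalization, -0.13 with length and GC trends removed, and -0.68 to 0.59 with a library left out. Tmem204 between Cd38-/- and Cd38+/- was -0.11 with the index as a covariate. With a library left out, Pecam1 ran from -1.10 to 1.53, from -0.84 to 1.79 and from -0.0391 to 0.59 in heterozygous against Cd38+/+, null against Cd38+/+ and null against heterozygous libraries. Between Cd38+/- and Cd38+/+, Flt1 ran from -0.94 to 0.33, Cdh5 from -1.32 to 0.0898 and Tek from -1.09 to 0.0459. In Cd38-/- against Cd38+/+, Tek ran from -0.74 to 0.39, Slco1a4 from -0.72 to 0.34 and Ly6c1 from -1.18 to 0.0074, and Flt1 between Cd38-/- and Cd38+/- ran from -0.12 to 0.68. Nostrin kept its sign in all 3 comparisons under every alternative run. Against Cd38+/+ that sign is partly fixed by how Nostrin was chosen, and nothing is read from it.

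Replicate numbers are shared between genotypes in the labels. Same-numbered libraries correlated at -0.31 to 0.45 and were not treated as pairs in the main fits. With so few libraries, these values cannot settle whether any of them belong together. With the replicate block, calls among the 10 genes stayed at 0 in each comparison, calls over all genes became 4, 2 and 2 in the order above, and Slco1a4 between Cd38-/- and Cd38+/+ turned to 0.018. With the block and the length and GC trends removed, Flt1 there was -0.0396.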

Other observations

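Among the 34 index genes, 2 of the most abundant did not move with the rest. Tm4sf1, a membrane protein of endothelium and other cells, was at 423.90, 383.44 and 597.95 TPM in Cd38+/+ replicates 1 to 3, at 320.52 to 487.26 TPM in Cd38+/- and at 397.88 to 741.12 TPM in Cd38-/-. Mfsd2a, a lipid transporter of the blood-brain barrier, was at 114.08, 148.43 and 108.42 TPM, at 152.92 to 176.88 TPM and at 129.07 to 198.27 TPM. Cd38+/+ replicate 3, lowest for all 10 endothelial genes described, was the highest Cd38+/+ library for Tm4sf1. Ly6a, a surface antigen of brain endothelium, was at 151.38 to 590.36 TPM in Cd38+/+, at 114.87 to 159.18 TPM in Cd38+/- and at 100.37 to 424.51 TPM in Cd38-/-. These genes were the 3 most abundant of the index, and their levels are given as values with no test.

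Single libraries also stood apart for low index genes. Hspa12b was at 19.09, 0.02 and 4.72 TPM in the Cd38+/+ replicates and at 1.99 to 7.79 TPM in the other 9 libraries. Plvap, a protein of fenestrated endothelium, was at 29.02, 1.14 and 4.48 TPM in Cd38+/+ and at 1.28 to 5.67 TPM elsewhere. Both were chosen after their values were seen.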
